A study of Mus musculus with 2 samples.

Results

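The genes described here are the mouse solute carriers of inorganic ions, bicarbonate and zinc. They were chosen by symbol, with earlier results of these data known. The rule took the protein-coding RefSeq genes whose symbol begins with 1 of 13 family prefixes (Slc4a, Slc8a, Slc8b, Slc9a, Slc12a, Slc20a, Slc24a, Slc26a, Slc30a, Slc34a, Slc39a, Slc40a and Slc41a). The choice gave 84 of the 21787 protein-coding genes, and 136 of 38366 m6A peaks had their summit inside the span of 1 of them. Of these 84, 3 are not carriers but share a prefix: Slc4a1ap encodes kanadaptin, a nuclear protein, and Slc9a3r1 and Slc9a3r2 encode the PDZ scaffolds NHERF1 and NHERF2.

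The series mapped N6-methyladenosine (m6A) by sequencing RNA fragments captured with an anti-m6A antibody (MeRIP-seq) in whole uterus of wild-type C57BL/6 mice. The m6A group held 1 library, labelled as uterus of gestation days 4 and 8 mixed in equal parts, and the input group held 1 library of whole uterus taken without antibody, whose label mentions no mixing. No animal age, number of animals or other treatment is given in the labels. The peak names begin with D8posIP-Neginput, which speaks of day 8 and leaves out day 4, so the mixture rests on the sample label. There were no replicates, so all values below are descriptions of these libraries, without a test between groups. Peaks were found in all 21 listed markers of smooth muscle, stroma, decidua, epithelium, endothelium and leukocytes, in 0 of 3 trophoblast markers and in 1 of 2 red cell markers. Of all protein-coding genes 55.7% had a peak. The marker lists are short and were chosen with earlier results of these data known. A peak or its absence in them only describes the bulk tissue.

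Fold enrichment is given as deposited by the authors: fragments in the immunoprecipitate (IP) over those expected from local background, read at the summit, the highest point of a peak. One fragment is added to both terms, which understates the fold of thin peaks. The interval after a fold is an exact 95% Poisson interval that treats the background as known, and it covers counting error only. Peaks in the carrier genes had a median of 6.27-fold (quartiles 4.55 and 8.21) and ranged from 2.05-fold to 18.5-fold, while the median over all peaks was 6.16-fold. They rested on 4 to 170 IP fragments, with a median of 29.5, and 17 of them on fewer than 10. At 11 of the 136 peaks (8.09%) the background stood at its floor for the whole genome, 0.462 scaled fragments, beside 7.43% of all peaks.

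These families move small ions across membranes. Slc4a and Slc26a proteins carry bicarbonate, chloride and sulfate, Slc9a proteins exchange sodium for protons, and most Slc12a proteins couple chloride to sodium or potassium. Slc8a, Slc8b and Slc24a proteins exchange sodium for calcium, Slc20a and Slc34a proteins take up phosphate, Slc40a1 exports iron and Slc41a proteins carry magnesium. Slc30a proteins (ZnT) move zinc out of the cytosol and Slc39a proteins (ZIP) move it in. In the uterus, ion transport by the epithelium sets the volume and pH of the luminal fluid around embryo attachment, and calcium exchange lowers cytosolic calcium in smooth muscle. The m6A mark is laid on nascent mRNA by a methyltransferase complex, is most often found near stop codons and in long internal exons, and is bound by YTH-domain readers.

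A peak was present in 53 of the 84 genes (63.1%, exact Clopper-Pearson 95% interval 51.9 to 73.4), where 55.7% of all protein-coding genes had one. This interval includes the background share, so the count does not set the carriers apart. A summit anywhere in the span counts, and the median span was 38 kb in the members and 17.2 kb over all protein-coding genes. The shares were not adjusted for span. Among genes with a peak, the median of the highest fold was 8.05 in the carriers (quartiles 5.56 and 10.48) and 8.04 over all protein-coding genes, with a median of 2 peaks per gene in both. A summit of at least 10-fold was present in 16 of 84 members (19.05%), beside 17.5% of protein-coding genes. At least 4-fold was reached by 45 members, beside 51.5% of protein-coding genes, and a −log10 q of at least 5 by 49, beside 53.1%. At least 5 summits were present in 7 members, beside 8.33% of protein-coding genes. Leaving out Slc4a1ap, Slc9a3r1 and Slc9a3r2 gave 50 of 81 genes with a peak (61.7%). In bulk tissue, fewer cells of a type and less RNA per cell cannot be told apart, and where no peak was listed the RNA may lack the mark, be absent or have too few fragments.

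**Figure D1:**
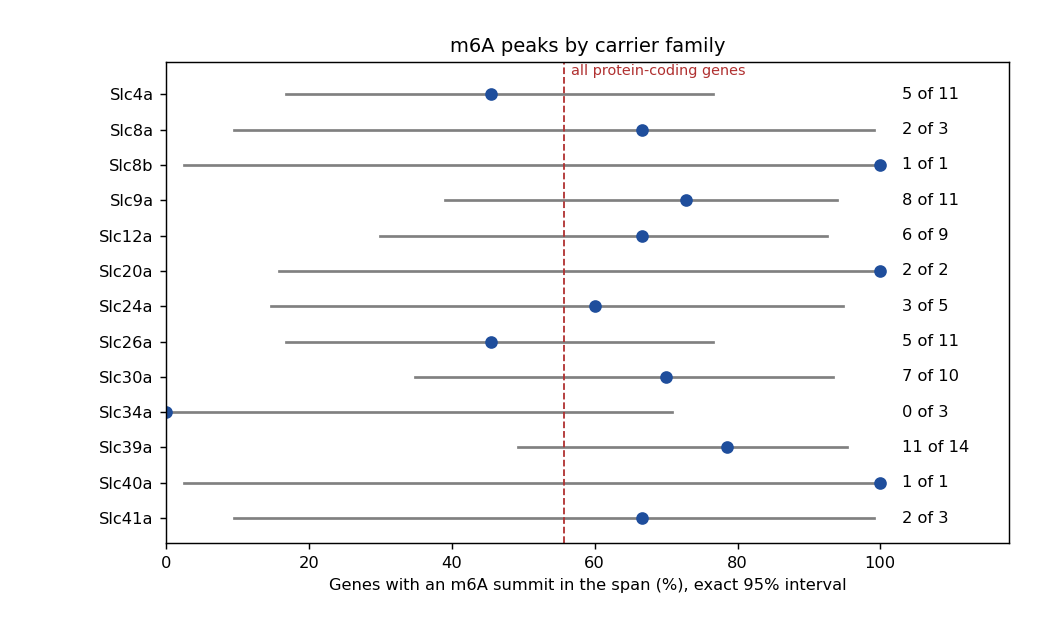
Share of genes with an m6A summit in their span (x axis, percent) for each carrier family (y axis), with the exact 95% interval as a bar and the counts at the right. The dashed line is the 55.7% of all protein-coding genes, and the interval of every family includes it.

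The zinc families together were the largest group by number of genes and also held the most peaks. Their median was 2 peaks per gene with a peak, the same as over all protein-coding genes. Of 24 zinc carriers 18 had a peak (75%, Clopper-Pearson 53.3 to 90.2), with 46 peaks in all, and of 21 bicarbonate and anion carriers of the Slc4a and Slc26a families, Slc4a1ap left out, 9 had one (42.9%, 21.8 to 66.0), with 15 peaks. These intervals overlap, both include the 55.7% of all protein-coding genes, and no test of the difference was made. Peaks were present in 11 of 14 Slc39a genes, 7 of 10 Slc30a genes, 8 of 11 Slc9a genes (both scaffold genes included), 6 of 9 Slc12a genes, 5 of 11 Slc4a genes (Slc4a1ap included), 5 of 11 Slc26a genes and 3 of 5 Slc24a genes. Both Slc20a genes, 2 of 3 Slc8a genes, 2 of 3 Slc41a genes, Slc8b1 and Slc40a1 also had one, and 0 of 3 Slc34a genes did.

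Zinc importers of the Slc39a family reached the highest zinc-carrier folds. Slc39a7, which encodes the ZIP7 channel that releases zinc from the endoplasmic reticulum (NCBI Gene 14977, chromosome 17, 34028266 to 34031690), had 12.9-fold enrichment (11.1 to 15.01) at 34029644 to 34031671. That peak held 170 IP fragments, the most of any peak in these genes, over a background of 12.2. At 2028 bases it was also the widest of the 136, in the shortest span with a peak (3425 bases), with its summit 211 bases from the 5′ end. The other Slc39a7 peak, 203 bases from the 3′ end, reached 3.95-fold (3.28 to 4.72), and the intervals of the pair do not overlap. Slc39a9, a Golgi zinc carrier (NCBI Gene 328133, chromosome 12, 80643883 to 80683342), had 12.6-fold (9.69 to 16.2) at 80644007 to 80644822 from 60 fragments over 3.83. Its peak 3533 bases from the 3′ end reached 8.62-fold (6.86 to 10.7).

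Slc39a11 (NCBI Gene 69806, chromosome 11, 113244851 to 113650200) carried 5 summits between 6.07-fold and 10.6-fold (7.38 to 14.9), with the top one at 113447136 to 113448013. Of these, 3 summits also lay in another gene: Cog1, Sstr2 or a long non-coding RNA gene. Slc39a6 encodes LIV-1, a zinc importer known as an estrogen-responsive gene (NCBI Gene 106957, chromosome 18). It held 5 peaks with folds of 3.41, 4.56, 7.24, 10.3 and 10.48 in ascending order. The highest rested on 126 IP fragments over 11.1 (interval 8.75 to 12.5), and the next, 10.3-fold (7.09 to 14.5), on 31 over 2.11, so folds of near-equal size had unequal depth. Slc39a8, a carrier of zinc and manganese, had 9.89-fold (5.81 to 15.9) from 15 fragments. Slc39a10, the close relative of Slc39a6 (NCBI Gene 227059, chromosome 1, 46807544 to 46925776), carried 6 summits between 2.73-fold and 7.42-fold (6.26 to 8.73), and its highest at 46835169 to 46836321 rested on 143 fragments over 18.4.

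The remaining importers had lower point values. Slc39a3 had 6.63-fold, the intestinal zinc importer gene Slc39a4 4.16-fold, the Golgi carrier gene Slc39a13 3.89-fold, the zinc, iron and manganese importer gene Slc39a14 3.79-fold and Slc39a1 3.71-fold. Slc39a14 and Slc39a1 had many fragments, 87 and 108, over backgrounds of 22.2 and 28.4. Both held more fragments than the 12.6-fold peak of Slc39a9. No peak was listed for Slc39a2, Slc39a5 and the brain-type gene Slc39a12.

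Among the zinc exporters, Slc30a2 was highest. It encodes ZnT2, which loads zinc into secretory vesicles and is known from the lactating mammary gland (NCBI Gene 230810, chromosome 4, 134343046 to 134354484). Its 4 peaks reached 3.72, 6.59, 7.15 and 11.7-fold, the last (9.50 to 14.3) at 134352267 to 134353224 from 96 fragments over 7.29. Slc30a1, the plasma membrane zinc exporter, had 9.60-fold (7.78 to 11.7) and 9.43-fold (6.65 to 13.02), and the summit of the second also lay in a long non-coding RNA gene. Slc30a4 had 9.57-fold (7.87 to 11.5) from 109 fragments and 8.27-fold (6.03 to 11.1). The exporters of the early secretory pathway followed: Slc30a5 with 7.07-fold, Slc30a6 with 6.49-fold and Slc30a7 with 4.08-fold. Slc30a9, the gene of a mitochondrial zinc carrier, had 5.88-fold. The synaptic vesicle gene Slc30a3, the pancreatic beta cell gene Slc30a8 and the manganese exporter gene Slc30a10 had no listed peak.

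**Figure D2:**
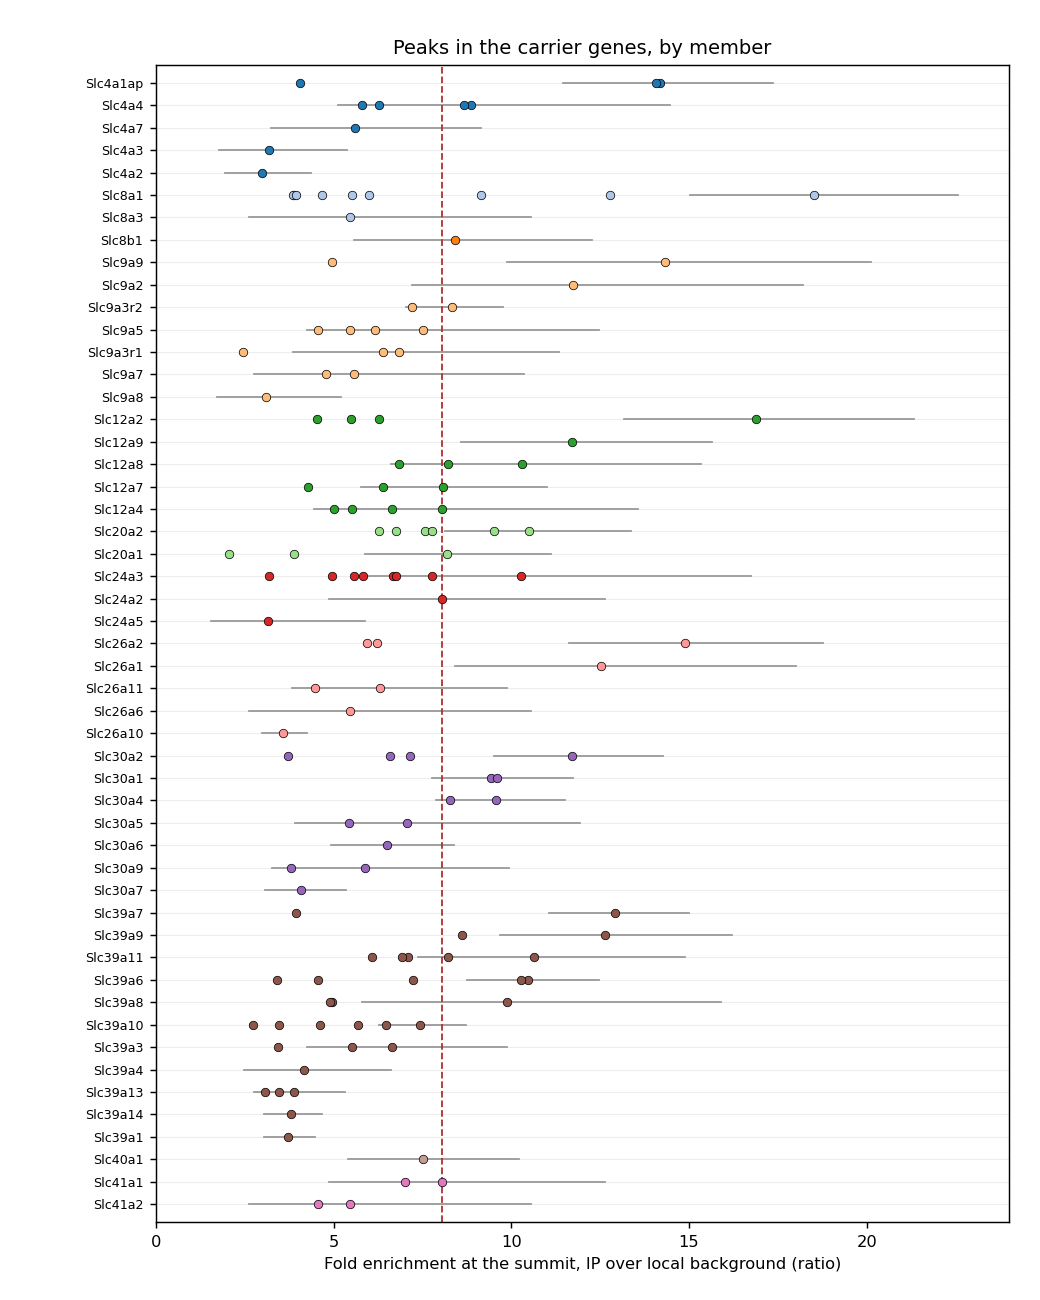
Fold enrichment (x axis, ratio) of 129 peaks in 51 carrier genes with a peak (y axis, ordered by family and then by highest fold), with 1 point per peak coloured by family and a bar for the exact 95% Poisson interval of the highest peak. The dashed line is the median highest fold of all protein-coding genes with a peak, 8.04, and Slc8a1 and Slc12a2 hold the highest points.

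Slc8a1 had both the highest fold and the most peaks of all members. It encodes NCX1, the sodium-calcium exchanger of heart and smooth muscle (NCBI Gene 20541, chromosome 17, 81373105 to 81738387, minus strand). Its 9 peaks ran from 3.86-fold to 18.5-fold. The highest, at 81512418 to 81512803, held 96 fragments over 4.24 (15.04 to 22.6) and lay 225773 bases from the 5′ end and 139509 bases from the 3′ end of a span of 365 kb. A second peak, 68221 bases from the 5′ end, reached 12.8-fold (8.05 to 19.4) from 20 fragments over 0.642. The deepest, with 110 fragments over 19.1, was 1852 bases wide and reached 5.51-fold (4.54 to 6.63). No summit in Slc8a1 lay within 1000 bases of either end.

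The other calcium exchangers had lower folds. Slc24a3, a potassium-dependent sodium-calcium exchanger (NCBI Gene 94249, chromosome 2, 145167775 to 145642166), carried 8 summits between 3.19-fold and 10.3-fold (5.92 to 16.8). Its highest, at 145485434 to 145485685, rested on 14 fragments over the genome-wide background, and its deepest peak held 30. Slc8b1, the mitochondrial exchanger gene (NCBI Gene 170756, chromosome 5, 120511168 to 120534024), had 8.42-fold (5.56 to 12.3). Slc24a2 had 8.05-fold at a summit that also lay in a pseudogene, Slc8a3 had 5.47-fold from 7 fragments, and Slc24a5, the melanosome carrier gene, had 3.15-fold at a summit shared with Myef2. Slc8a2, known from neurons, Slc24a1, known from rod photoreceptors, and Slc24a4, known from tooth enamel, had no listed peak.

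**Figure D3:**
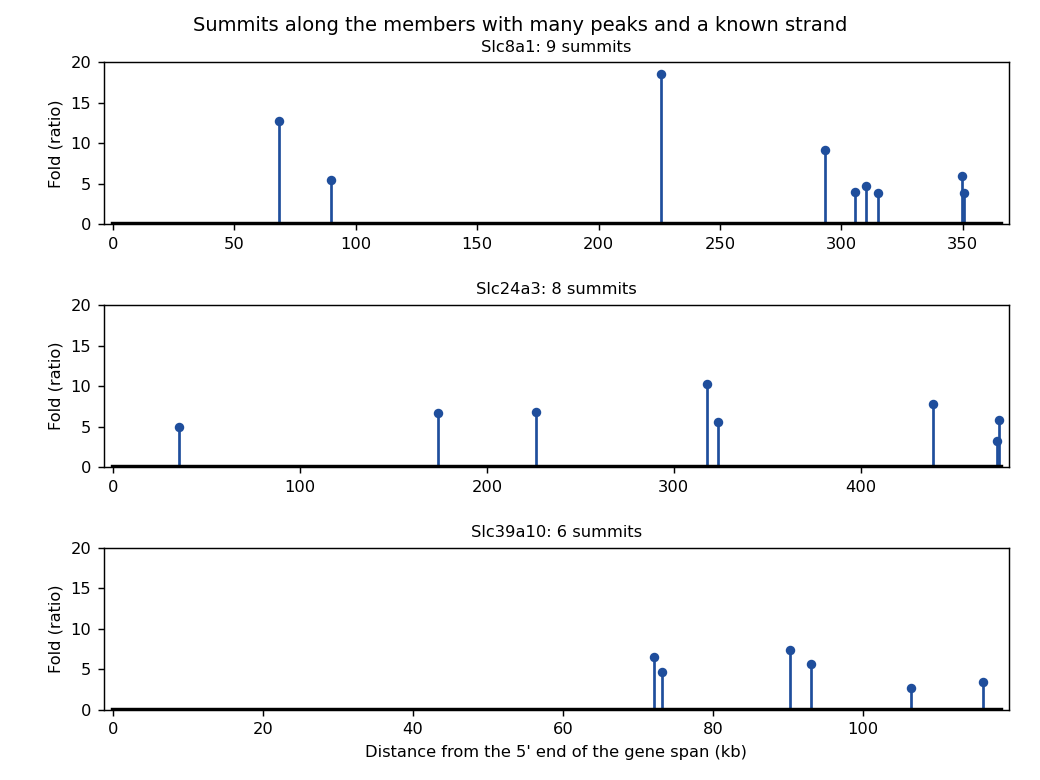
Summits of Slc8a1, Slc24a3 and Slc39a10 by distance from the 5′ end of the gene span (x axis, kb) and fold enrichment (y axis, ratio), with the span as a black line. In Slc8a1 and Slc24a3 the highest points, 18.5-fold and 10.3-fold, stand far from both ends. In Slc39a10 all 6 lie at least 72130 bases from the 5′ end of the span. Measured from annotated starts inside the Slc39a10 span, however, a summit lies 28 bases upstream and another 968 bases downstream.

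Of the Slc12a genes, Slc12a2 stood highest. It encodes NKCC1, which brings sodium, potassium and chloride into secretory epithelia (NCBI Gene 20496, chromosome 18). Its 4 peaks reached 4.52, 5.50, 6.27 and 16.9-fold, and the interval of the highest (13.2 to 21.3, 68 fragments over 3.09) does not overlap those of the other 3. That summit lay 766 bases from an end of the gene span. Slc12a9 (NCBI Gene 83704, chromosome 5, 137314558 to 137340070) had 11.7-fold (8.58 to 15.6) at 137315216 to 137315661, 803 bases from its 3′ end. Slc12a8 (NCBI Gene 171286, chromosome 16, 33517328 to 33664138) had 3 peaks up to 10.3-fold (6.62 to 15.3), the highest 954 bases from its 3′ end. Among the potassium-chloride cotransporters, which let chloride out, a pair had lower point values, with intervals that overlap those of Slc12a8 and Slc12a9: Slc12a7 (KCC4) with 8.08-fold (5.78 to 11.01) and Slc12a4 (KCC1) with 8.04-fold (4.45 to 13.6). Slc12a1 and Slc12a3, the cotransporters of the kidney tubule, and Slc12a5, that of neurons, had no listed peak.

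The sodium-proton exchangers, without the scaffold genes, had 16 peaks in 6 of 9 genes. Slc9a9, an endosomal exchanger gene (NCBI Gene 331004, chromosome 9, 94669557 to 95230453), had 14.3-fold (9.87 to 20.1) at 95228680 to 95229446, from 31 fragments over 1.24. In this gene of 561 kb, the longest with a peak here, that summit lay 1369 bases from the 3′ end. Slc9a2, an exchanger of epithelia (NCBI Gene 226999, chromosome 1, 40681712 to 40768885), had a single peak of 11.7-fold (7.21 to 18.2) from 18 fragments over 0.618. Slc9a5 had 4 peaks up to 7.51-fold, Slc9a7 had 5.56-fold at a summit shared with Chst7, and Slc9a8 had 3.09-fold. The scaffold genes Slc9a3r2 and Slc9a3r1 had 8.32-fold (7.03 to 9.77) and 6.83-fold (3.86 to 11.3), whereas Slc9a3, the kidney and gut exchanger whose protein they bind, had no listed peak. Slc9a4, known from the stomach, had none either.

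Under the Slc4a prefix, Slc4a1ap included, 5 of 11 genes had a peak (45.5%, Clopper-Pearson 16.7 to 76.6). This interval includes the 55.7% of all protein-coding genes. The electrogenic sodium-bicarbonate cotransporter gene Slc4a4 (NBCe1, NCBI Gene 54403, chromosome 5, 88793858 to 89239656) carried 4 summits between 5.78-fold and 8.87-fold (5.12 to 14.5), on only 9 to 14 fragments. Slc4a7 had 5.60-fold, and the chloride-bicarbonate exchanger genes Slc4a3 and Slc4a2 had 3.18-fold (1.76 to 5.37) and 2.97-fold (1.95 to 4.36). The highest value under this prefix, 14.2-fold (11.5 to 17.4) at chromosome 5, 31527863 to 31528173, belonged to the non-carrier gene Slc4a1ap (NCBI Gene 20534), which had 14.1-fold (9.97 to 19.3) at another peak. The red cell exchanger gene Slc4a1 and Slc4a5, Slc4a8, Slc4a9, Slc4a10 and Slc4a11 had no listed peak.

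In the Slc26a family the highest fold was that of a sulfate transporter gene. Slc26a2, which supplies sulfate for proteoglycans (NCBI Gene 13521, chromosome 18), had 3 peaks of 5.93, 6.22 and 14.9-fold (11.6 to 18.8), the last from 69 fragments over 3.71 and with an interval above those of the other 2. Slc26a1, a sulfate and oxalate exchanger gene (NCBI Gene 231583, chromosome 5, 108669878 to 108678380), had 12.5-fold (8.41 to 18.02) at 108671345 to 108673084. Its summit also lies in Idua, the gene of a lysosomal enzyme, and the list carries no strand, so the peak cannot be given to either gene. Slc26a11 had 6.31-fold, Slc26a6, a chloride-bicarbonate exchanger gene, 5.47-fold from 7 fragments, and Slc26a10 3.57-fold at a summit shared with B4galnt1. Slc26a3, Slc26a4 (pendrin), Slc26a5 (prestin, of cochlear hair cells), Slc26a7, Slc26a8 and Slc26a9 had no listed peak.

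Phosphate, iron and magnesium carriers completed the set. The widely expressed phosphate transporter gene Slc20a2 (NCBI Gene 20516, chromosome 8, 22476700 to 22569616) carried 6 summits between 6.27-fold and 10.50-fold (8.13 to 13.4), with the top one at 22534826 to 22535453 from 64 fragments, and 1 of the 6 summits was shared with Smim19. Its relative Slc20a1 (NCBI Gene 20515, chromosome 2, 129198773 to 129211615) had folds of 2.05, 3.87 and 8.18 (5.87 to 11.1). The kidney and gut phosphate transporter genes Slc34a1, Slc34a2 and Slc34a3 had no listed peak. Slc40a1, the gene of the iron exporter ferroportin (NCBI Gene 53945, chromosome 1, 45908070 to 45926532), had a single peak of 7.51-fold (5.40 to 10.2) at 45910966 to 45911349. The magnesium carriers Slc41a1 (NCBI Gene 98396, chromosome 1, 131828012 to 131848863) and Slc41a2 had 8.05-fold (4.88 to 12.6) and 5.47-fold (2.61 to 10.6), and Slc41a3 had no listed peak.

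**Figure D4:**
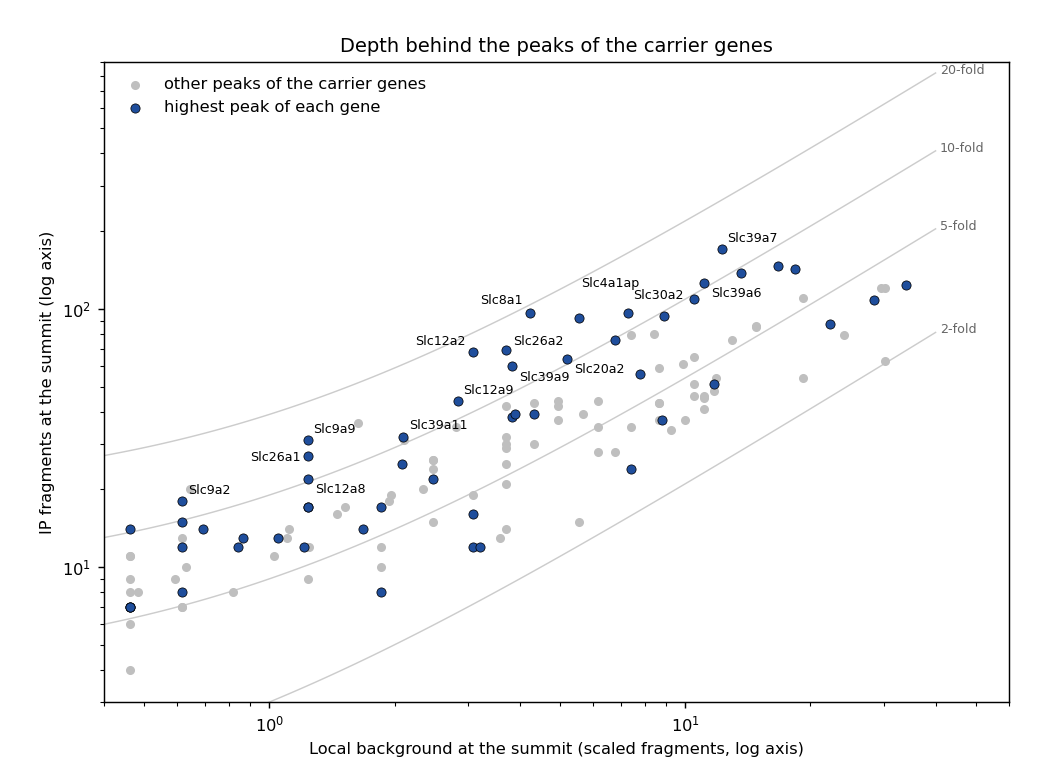
IP fragments (y axis, log) against local background (x axis, scaled fragments, log) at each peak of the carrier genes, with the highest peak of each gene in blue, grey lines of equal fold and names for the 15 genes with the highest fold. Folds of 12.9 and 11.7 come from unequal depth: Slc39a7 holds 170 fragments and Slc9a2 holds 18.

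Position along the gene was the next question, since neither the gene choice nor the fold uses it. Of 136 summits in the members, 45 (33.1%, Clopper-Pearson 25.3 to 41.7) lay within 1000 bases of an end of the gene span, beside 25.2% of all summits in protein-coding genes. Distances were taken to the outer ends of the span only, so nearness to an annotated start inside the span was not counted. A RefSeq table of transcript starts gave the strand of 65 of the 84 members, 41 of them with a peak. In these, 20 of 104 summits (19.2%, 12.2 to 28.1) lay within 1000 bases of the 5′ end, where 10.1% of protein-coding summits did. Near the 3′ end lay 17 of 104 (16.3%, 9.82 to 24.9), where 15.7% did. At 1000 bases the 5′ share stood above the background share and the 3′ share close to it. The excess depended on the distance and on the members. Within 500 bases of either end lay 25 of 136 summits (18.4%, 12.3 to 25.9), beside 16.3%, an interval that includes the background share. Within 500 bases of the 5′ end lay 14 of 104 (13.5%, 7.56 to 21.6), beside 7.22%. Within 500 bases of the 3′ end lay 6 of 104 (5.77%, 2.15 to 12.1), beside 9.50%. Without Slc4a1ap, Slc9a3r1 and Slc9a3r2, the 5′ shares were 17 of 96 (17.7%, 10.7 to 26.8) at 1000 bases and 11 of 96 (11.5%, 5.86 to 19.6) at 500 bases, and the last interval includes the background share. Summits of 1 gene share their transcript, so these binomial intervals are too narrow, and no test of the difference was made.

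Counts per gene gave a mixed picture. A summit within 1000 bases of the 5′ end was present in 19 of 41 members with a peak and a strand (46.3%, 30.7 to 62.6), beside 26.8% of protein-coding genes counted alike. For the 3′ end it was 16 of 41 (39.0%) beside 41.6%, and 10 of 41 (24.4%) had both beside 10.8%. Without the 3 genes that are not carriers the 5′ count was 16 of 38 (42.1%, 26.3 to 59.2), an interval that includes the background share. The count with both was then 8 of 38 (21.1%, 9.55 to 37.3), which includes its background share too. The highest peak of a gene lay within 1000 bases of the 5′ end in 9 of 41 members (21.95%, 10.6 to 37.6), beside 16.2%, and this interval includes the background share as well. In spans of at least 20 kb, where a window of 1000 bases is a small part, the 5′ shares were 14.3% of 77 summits in the members (7.35 to 24.1) and 7.07% in all protein-coding genes. Without the 3 genes that are not carriers the members' share was 10 of 74 (13.5%, 6.68 to 23.5), an interval that includes the 7.07%. Zinc carriers made up 10 of the 19 genes with a 5′ summit, and 15 of the 41 members with a peak and a strand: Slc30a1, Slc30a2, Slc30a4, Slc30a5, Slc30a9, Slc39a3, Slc39a7, Slc39a9, Slc39a11 and Slc39a13. The 5′ peaks had a median of 6.99-fold on 16.5 fragments, and the 3′ peaks 5.53-fold on 37 fragments, with median backgrounds of 1.99 and 7.78.

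**Figure D5:**
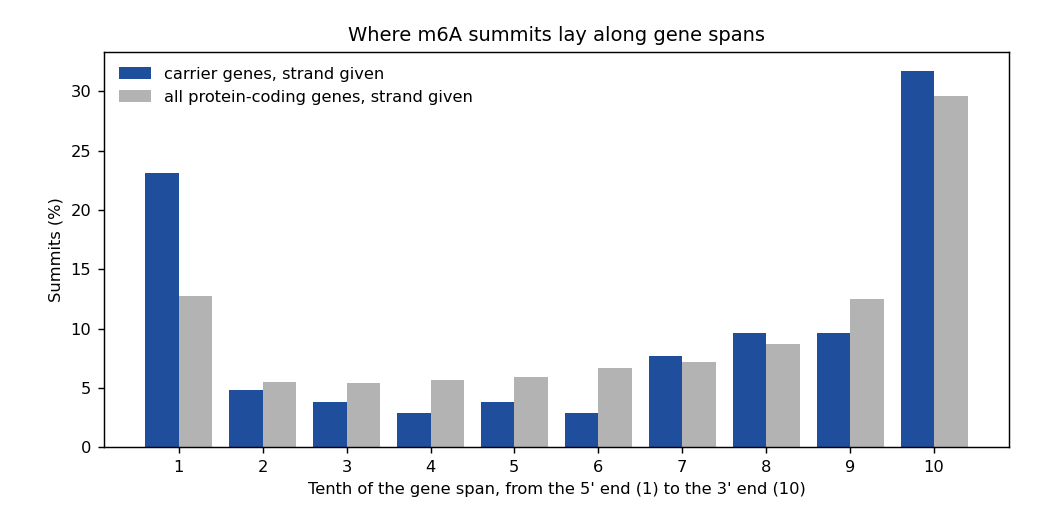
Share of summits (y axis, percent) in each 10% step of the gene span from the 5′ end to the 3′ end (x axis), for 104 summits in carrier genes (blue) and 27037 in all protein-coding genes (grey), strand given in both. The first step holds 23.1% of carrier summits and 12.8% of all, and the last holds 31.7% and 29.6%.

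At 5 annotated transcript starts of these genes a peak covered the first 30 transcribed bases, among 82 start windows of the members (6.10%), beside 7.59% of 21263 windows of protein-coding genes. They are printed because they are the places where the sequence of a peak in these genes is at hand. Each line gives 120 bases before the start in lower case and the first 30 transcribed bases in capitals, 5′ to 3′ on the strand of the gene, from RefSeq on GRCm38.p6, the assembly of mm10. The Slc39a9 window is chr12:80644095-80644244, plus strand, and that of Slc41a1 is chr1:131827892-131828041, plus strand. Slc12a4 lies at chr8:105966086-105966235, minus strand, Slc39a10, at an inner start, at chr1:46853589-46853738, minus strand, and Slc30a7 at chr3:116007377-116007526, minus strand.
Slc39a9: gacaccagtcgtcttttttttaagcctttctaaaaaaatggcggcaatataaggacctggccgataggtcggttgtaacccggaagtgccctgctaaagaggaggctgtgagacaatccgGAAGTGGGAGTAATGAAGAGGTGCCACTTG
Slc41a1: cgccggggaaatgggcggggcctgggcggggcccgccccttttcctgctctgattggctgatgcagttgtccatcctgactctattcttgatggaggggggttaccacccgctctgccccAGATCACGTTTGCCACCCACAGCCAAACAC
Slc12a4: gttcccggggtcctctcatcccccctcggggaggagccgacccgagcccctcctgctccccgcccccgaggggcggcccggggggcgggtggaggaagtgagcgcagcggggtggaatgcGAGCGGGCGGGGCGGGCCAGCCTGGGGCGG
Slc39a10: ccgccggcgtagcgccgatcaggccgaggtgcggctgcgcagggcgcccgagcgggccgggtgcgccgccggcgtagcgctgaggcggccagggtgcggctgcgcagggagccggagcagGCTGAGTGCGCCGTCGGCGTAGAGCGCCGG
Slc30a7: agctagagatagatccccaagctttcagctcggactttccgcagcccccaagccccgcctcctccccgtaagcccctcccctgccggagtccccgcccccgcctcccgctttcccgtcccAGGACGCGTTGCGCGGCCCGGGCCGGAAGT

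In Slc39a9, Slc41a1 and Slc12a4 the summits lay 148, 89 and 131 bases downstream of these starts, with the folds given above. In Slc39a10 the summit lay 28 bases upstream of an inner start and reached 6.46-fold (3.97 to 10.02) from 18 fragments. In Slc30a7 it lay 185 bases upstream, outside the gene span, so this peak of 4.43-fold (2.26 to 8.003) is not among the 136. The letters GGACT, a frequent context of m6A, were searched on both strands of the full windows of 300 bases, of which 250 precede the start. They occur on the strand of the gene once in Slc12a4, 34 bases into the transcript, and once in Slc30a7, 89 bases before it. Slc39a9 and Slc39a10 hold none on either strand, Slc41a1 holds 1 on the opposite strand and Slc30a7 holds 2 there. Among all protein-coding windows 26.7% hold GGACT on the strand of the gene, and 32.9% of the members' windows do. A match describes letters only.

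Genes that work with these carriers were taken from 7 short lists. A peak was present in 36 of 45, with a median highest fold of 8.23, beside 55.7% and 8.04 over all protein-coding genes. The lists are short, were chosen with earlier results of these data known and were not tested, so these shares are a description only. All 6 kinase genes that switch the Slc12a cotransporters had one (Wnk1, Wnk2, Wnk3, Wnk4, Stk39 and Oxsr1), from 5.20-fold in Wnk4 to 10.4-fold in Oxsr1. All 8 genes of sodium and calcium pumps had one, led by the pump subunit gene Atp1b1 at 19.2-fold (13.1 to 27.1). All 4 zinc-handling genes had one: the metallothionein genes Mt3 at 16.8-fold (12.2 to 22.7), Mt1 at 6.21-fold (5.37 to 7.14) and Mt2 at 3.84-fold (3.29 to 4.47), and the zinc-sensing factor gene Mtf1 at 10.9-fold (8.82 to 13.2). Mt1 and Mt2 rested on 193 and 169 fragments.

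Of 8 chloride and bicarbonate partners 5 had a peak. They were the chloride channel genes Ano1 at 11.8-fold (9.69 to 14.2), Cftr at 11.1-fold (6.74 to 17.4) and Clcn2 at 6.36-fold, and the carbonic anhydrase genes Car2 at 7.78-fold and Car4 at 5.19-fold. The summits of Clcn2 and of the iron gene Cp also lay in a second gene. Car9, Car12 and Car14 had none. Of 6 phosphate and magnesium partners 4 had one. The highest were Cnnm3 at 30.5-fold (22.9 to 39.9) and Cnnm2 at 24.5-fold (19.3 to 30.8), both genes tied to magnesium transport. Both values exceed the 18.5-fold of Slc8a1, though the interval of Cnnm2 overlaps that of Slc8a1. Cnnm4 had 5.39-fold and the phosphate exporter gene Xpr1 8.21-fold, and Cnnm1 and Trpm7 had none. Of 9 iron genes 6 had one. The ferroxidase genes Heph and Cp reached 10.04-fold and 9.39-fold, and the ferritin genes Fth1 and Ftl1 8.25-fold and 5.18-fold. The iron-responsive binding protein genes Ireb2 and Aco1 had 3.14-fold and 2.40-fold, and Tfrc, Slc11a2 and Hamp had none. Of the exchanger partners, Ezr (15.1-fold) and Chp1 (7.41-fold) had one and Chp2 did not.

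Set beside related gene groups, the carriers (63.1% with a peak) stood close to the Slc25 genes in that share. In the share at 10-fold or more they stood closer to the channel genes. A peak was present in 31 of 47 Slc25 mitochondrial carriers (66.0%), 128 of 244 other Slc genes (52.5%) and 65 of 120 potassium and calcium channel genes (54.2%). At least 10-fold was reached by 1 of the 47 Slc25 genes (2.13%), 20 of the other 244 Slc genes (8.20%) and 27 of the 120 channel genes (22.5%), beside 19.05% of the ion, bicarbonate and zinc carriers. These shares were not tested against each other and not adjusted for span. The median span was 21.5 kb in the Slc25 genes, 28.5 kb in the other Slc genes and 41.1 kb in the channel genes. Across the 53 members with a peak, Spearman's rho was 0.50 between the number of peaks and the highest fold, 0.23 between span and number of peaks, and -0.017 between background and highest fold. The highest fold is taken over all peaks of a gene, so more peaks tend to raise it by construction. The first rho cannot tell a relation apart from this. All these points come from the same pair of libraries. The median span was 30.8 kb in members with a peak and 40.2 kb in those without.

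Summits shared with another gene were 11 of 136 (8.09%), beside 12.8% over protein-coding genes. Slc24a2, Slc24a5, Slc26a1 and Slc26a10 had no summit of their own, so 49 members had a peak in no other gene, where 51.1% of protein-coding genes had one.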

How the data were processed

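The data were 1 m6A immunoprecipitation library and 1 input library, made with a strand-keeping kit from TRIzol-extracted total RNA, per the labels' protocols. Groups were taken from the sample titles. HISAT2 2.2.1, MACS3 3.0.0a7 and the build mm10 are named per the submitters' processing notes, with settings, filters and duplicate handling not given in the sources used here.

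Per peak, the deposited list gives the fold enrichment, a ratio of IP to local background, with its −log10 p and −log10 q, all as written by the authors' peak caller. The lowest deposited −log10 q was 1.32. The deposited display score was 10 times −log10 q cut to whole numbers (99.98% of peaks) and entered no result. Scores describe and rank peaks within this list only. IP fragments k and background b were recovered from the fold, read as (k + 1)/(b + 1), and the Poisson p, within 0.001 on the −log10 scale at 100% of peaks. In 2000 simulated peaks the fragments were recovered in 100%. These peaks were made with the same formulas, so the result checks the calculation only. They did not cover the thinnest peaks, the background floor or the highest folds of the data. Total reads per library were not used here.

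A peak was linked to a gene by a summit in its span, using 49632 RefSeq genes of GRCm38.p6 after leaving out 365 outside the assembled chromosomes. Exons were not used, so intron and exon are not told apart. Peaks carry no strand. Strand came from RefSeq start windows, matched by gene ID for 65 of 84 members. Coordinates are mm10, counted from 1. Members and lists were chosen with earlier results of these data known.

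Named genes are the members, with some not reported here, in full for the 15 with the highest fold, the highest of each family and the 5 with the most peaks. Alternatives were peaks with −log10 q from 5 up, peaks from 4-fold up, overlap by 1 base or 50% of the peak, single-gene summits, merged intervals, the median fold, −log10 q as score and 500 bases as near. Intervals came from scipy 1.17.1 and figures from matplotlib 3.10.9, under Python 3.11.15 with pandas 2.3.3 and numpy 2.4.6.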

Additional observations from a re-analysis of the deposited data

How the results depend on the processing

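The count of members with a peak was 53 and stayed between 45 (fold of at least 4) and 53 under the 6 other peak thresholds and gene links, while the background share of protein-coding genes stayed between 51.1% and 56.1%. The members lost at a −log10 q of at least 5 were Slc4a2, Slc4a3, Slc9a8 and Slc24a5, and at a fold of at least 4 also Slc26a10, Slc39a1, Slc39a13 and Slc39a14. With single-gene summits Slc24a2, Slc24a5, Slc26a1 and Slc26a10 were lost. With at least 50% of the peak inside the span, 1 member was lost. Members at 10-fold or more were 15 with single-gene summits, where Slc26a1 dropped out, and 16 under the other settings. The median highest fold of 8.05 became 6.22 when the median over a gene's peaks replaced the highest, where that of all protein-coding genes became 6.16. With 500 bases as the distance that counts as near, 18.4% of the members' summits were near an end instead of 33.1%, and 16.3% over protein-coding genes. The gap between members and all genes, both ends counted together, thus narrowed from 1000 to 500 bases. At 500 bases the members' point value was above that of all genes near the 5′ end (13.5% beside 7.22%). Near the 3′ end it was below (5.77% beside 9.50%). Leaving out the 3 members that are not carriers, a choice made after seeing the data, gave 31.25% at 1000 bases. Ranking by −log10 q kept 9 of the 15 members highest by fold. Merging intervals changed nothing, since no interval was repeated. No paired analysis was possible because each group held 1 library. Peaks of fewer than 10 fragments, 17 of 136, have wide intervals.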
